A study of Mus musculus with 32 samples.

Results

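The 46 genes described here make and control the lysosome. They are the TFEB-family transcription factors, the folliculin complex and the Rag-Ragulator proteins that regulate those factors, 4 cation channels of the endolysosomal membrane, lysosomal membrane proteins, cathepsins, other hydrolases and their helpers, the autophagy receptor *Sqstm1*, and subunits of the V-ATPase proton pump. They were taken by symbol from a list of named genes, and all 46 were found among the 53558 genes of the processed files. Bulk RNA-seq had been carried out on neoplastic cells sorted from mouse lung tumors in 32 libraries of 5 groups. All mice carried *Rosa26* LSL-tdTomato, a reporter that Cre activates, and the tumors had been started with lentiviral Cre. In *KT* tumors *Lkb1* (gene symbol *Stk11*) was wild-type, and the mice were untreated (n = 4, 24 to 27 weeks after initiation). Non-restored tumors were homozygous for *Lkb1* XTR, a gene trap that Cre turns on (n = 10, same ages). Of these, 6 also had the FLPo-ERT2 recombinase at *Rosa26* and received vehicle, and 4 lacked it and received tamoxifen. Restored tumors were homozygous for *Lkb1* XTR, had FLPo-ERT2 and received tamoxifen in 4 mg doses over 2 weeks, which removes the trap (n = 7, same ages). The other 2 groups had in addition *Trp53* flox/flox, deleted by the same Cre, and were taken at 16 to 19 weeks. They were *Trp53*-deficient non-restored (7 libraries of 4 animals, with libraries of 1 animal summed) and *Trp53*-deficient restored (n = 4). The n of the non-restored and restored groups counts libraries. The titles give each of these libraries its own animal code. The study describes fewer mice, however (4 restored and 3 in each non-restored arm). Whether some libraries share a mouse is thus not settled, and if they do, the p-values over libraries are too small. Every restored library, with or without *Trp53*, was from a female. Male mice gave 2 of the 4 *KT*, 3 of the 10 non-restored and 3 of the 7 *Trp53*-deficient non-restored libraries. In the last group 5 libraries were from vehicle-treated mice with FLPo-ERT2 and 2 from tamoxifen-treated mice without it. The *Trp53*-deficient restored mice had FLPo-ERT2 and received tamoxifen.

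As background, the lysosome is the acidic compartment in which cells break down proteins, lipids, sugars and worn organelles. TFEB, TFE3 and MITF are related basic helix-loop-helix factors that switch on lysosomal and autophagy genes through E-boxes with the core CACGTG. At the lysosomal surface, Ragulator, the Rag GTPases and folliculin with its partners FNIP1 and FNIP2 report nutrient supply to mTORC1, which holds these factors in the cytoplasm. LKB1 is the kinase that activates AMPK, a sensor of low energy that acts on the same machinery. In the alveolar type II cell, the cell of the lung that makes surfactant, a relative of the lysosome called the lamellar body stores surfactant, and cathepsin H takes part in processing surfactant proteins.

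The E-box core was looked up in RefSeq promoters of build GRCm38.p6, each reaching from 250 bases before to 50 after a transcription start. Promoters were matched for 40 of the 46 members, some with more than 1 start (49 promoters). CACGTG, which reads the same on both strands, lay in 13 of the 49 (26.5%), each of a different gene, against 7.15% of all 32851 promoters. The longer palindrome TCACGTGA, which contains the core, lay in 6 of the 49 (12.2%) against 0.974% of all. One window of at most 30 bases is shown for each of these 6 members and for *Fnip1*, the member with a core that changed in the tests below. Sequences are written along the gene's strand with the core in capitals.
Ctsa, chr2:164833749-164833778, plus strand: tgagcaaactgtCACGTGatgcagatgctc
Ctsd, chr7:142387908-142387937, minus strand: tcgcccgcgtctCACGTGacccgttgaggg
Gla, chrX:134601182-134601211, minus strand: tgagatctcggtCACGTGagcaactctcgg
Mcoln1, chr8:3500462-3500491, plus strand: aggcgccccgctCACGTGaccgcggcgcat
Atp6v0d1, chr8:105566050-105566079, minus strand: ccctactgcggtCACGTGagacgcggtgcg
Atp6v1a, chr16:44139373-44139402, minus strand: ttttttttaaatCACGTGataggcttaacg
Fnip1, chr11:54438092-54438121, plus strand: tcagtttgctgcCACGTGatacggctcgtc
The 250 bases before the start of *Tpcn2*, the member that changed most clearly, are shown because they hold 0 copies of the core, so that no letters are in capitals.
Tpcn2, chr7:145284012-145284261, minus strand: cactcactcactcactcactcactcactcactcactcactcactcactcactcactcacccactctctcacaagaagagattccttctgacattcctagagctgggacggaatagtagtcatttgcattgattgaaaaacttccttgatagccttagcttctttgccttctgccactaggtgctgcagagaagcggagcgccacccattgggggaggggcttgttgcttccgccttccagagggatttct
These letters describe the windows and say nothing about which factors bind there.

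Libraries held 1302467 to 5943927 expected counts, and a gene without any count could still stand at up to 3 counts, or 0.516 to 2.49 CPM (counts scaled to the size of the library). *Stk11* had 0 to 4 counts in every non-restored unit of both backgrounds, 20 to 67 in *KT* and 18 to 130 in the restored groups. The markers of epithelium (*Epcam*, *Nkx2-1*) and of alveolar type II cells (*Sftpc*) were present in every unit. The 10 macrophage markers summed to 44.2 to 251.5 CPM in most units but to 1542 CPM in restored replicate 1, 694 CPM in restored replicate 6 and 471 CPM in non-restored replicate 2, although the sort had excluded CD45 and F4/80. Results that rest on these 3 libraries are given with and without them. The summed markers of endothelium reached 83.9 CPM, those of airway cells 225.8 CPM and those of lymphocytes 1.35 CPM at most, and those of fibroblasts 963 CPM in 1 *Trp53*-deficient restored animal and 318 CPM elsewhere. In such sorted bulk samples, fewer cells of a type and less RNA per cell cannot be told apart.

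Compared per transcript length, as mean TPM over the 5 groups, the members spanned a wide range of levels. The protease *Ctsh* (cathepsin H) stood first at 1987 TPM, followed by *Ctsc* (cathepsin C) at 722, the main lysosomal membrane glycoprotein *Lamp1* at 582 and the tetraspanin *Cd63* at 566. Altogether 14 members exceeded 100 TPM. The regulators were at the other end of the order. *Tfe3* had 15.9 TPM, *Mitf* 6.41 and *Tfeb* only 2.599, so that *Tfe3* was the TFEB-family factor with the highest level in these cells in every group but *KT*, where *Mitf* averaged 14.5 TPM ± 2.81 (SD, n = 4) and *Tfe3* 12.1 ± 2.44. Among the channels *Mcoln1* had 16.7 TPM, *Tpcn2* 14.6, *Tpcn1* 2.86 and *Mcoln3* 0.418. *Mcoln3* failed the filter on low counts in every comparison, and *Tfeb* and *Gpnmb* failed it among *Trp53*-deficient tumors.

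**Figure D1:**
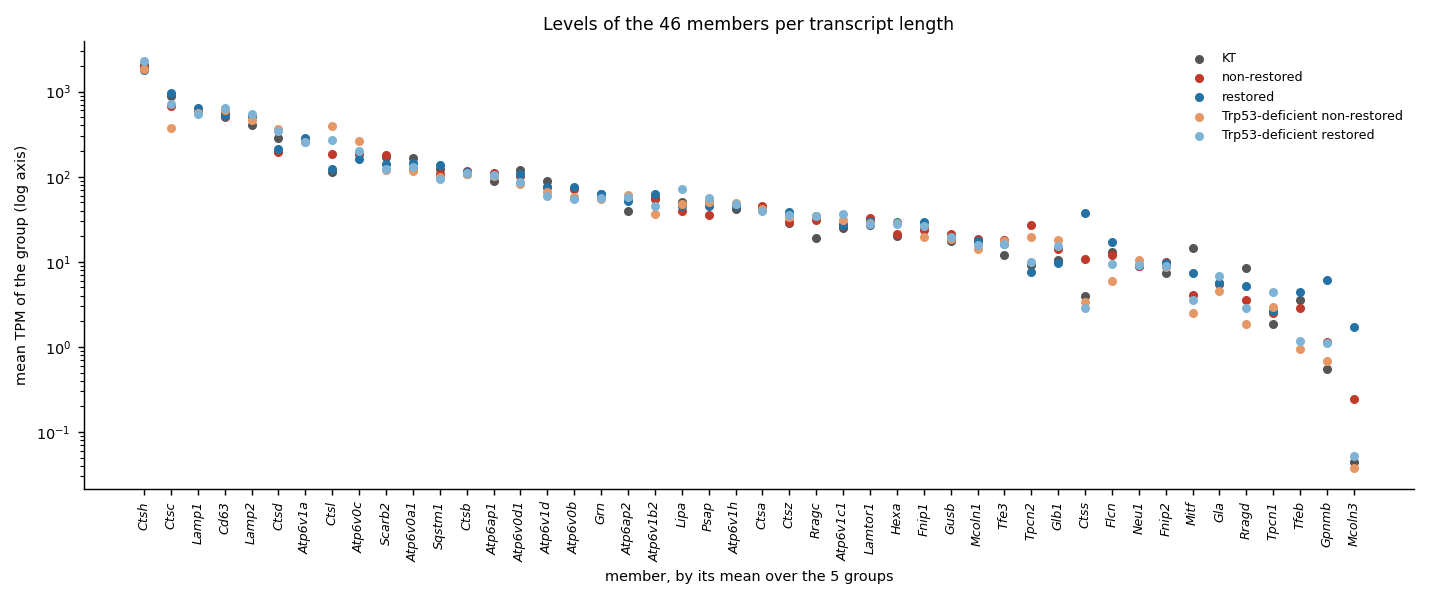
Mean TPM of each of the 46 members (log axis) in each of the 5 groups, with the members ordered by their mean over the groups. *Ctsh* leads at 1987 TPM and *Mcoln3* is last at 0.418 TPM, and the points of *Tpcn2*, *Mitf*, *Rragd*, *Ctss*, *Gpnmb* and *Mcoln3* are spread more than those of their neighbours.

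Restoring *Lkb1* lowered *Tpcn2* and raised *Sqstm1* and *Fnip1* in edgeR, and DESeq2 called these 3 and also *Hexa* and *Atp6v0a1* (5 members). Of all 12636 genes DESeq2 called 230 higher and 237 lower. The edgeR calls were 3 of the 45 members tested (6.67%), beside 236 of all 12636 genes tested (1.87%), when edgeR's quasi-likelihood p, adjusted over all genes, had to be under 0.05. The median log2 fold change was 0.16 over the members and -0.011 over all genes, and 33 members had a value above 0 against 6090 of all genes. In 2 of the 45 members, *Tpcn2* and *Sqstm1*, the groups did not overlap in CPM, as in 0.562% of all genes.

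*Tpcn2* encodes TPC2, a 2-pore channel that lets sodium and calcium out of endolysosomes. It lies on chromosome 7 (145186524 to 145284011, minus strand). The 7 restored libraries had 12.9, 12.1, 14.2, 13.8, 7.00, 14.1 and 10.1 CPM (replicates 1 to 7). The 10 non-restored libraries ran from 24.5 through a median of 39.4 to 56.7 CPM. Every restored library was thus below every non-restored one. The means were 12.01 CPM ± 2.62 (SD, n = 7) and 39.6 ± 10.4 (n = 10). The restored level was 3.31-fold lower (log2 fold change -1.73, SE 0.199, edgeR adjusted p = 3.95e-05). The value was -1.56 against the tamoxifen arm of the non-restored group alone (edgeR adjusted p = 0.00212), -1.83 against its vehicle arm alone (0.000128), and -1.86 without the 3 libraries high in macrophage markers (0.000253). A small gene on the same strand inside *Tpcn2*, *1810010D01Rik*, reached at most 0.989 CPM in any library.

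*Sqstm1* encodes p62, which carries ubiquitinated cargo into autophagosomes and is itself degraded in lysosomes (chromosome 11, 50199366 to 50210827). The restored libraries had 108, 113, 108, 135, 126, 145 and 125 CPM. The non-restored libraries ran from 77.5 through 88.4 to 100.5 CPM, below all of the restored ones. In TPM the groups overlapped, at 105 to 169 in restored and 94.3 to 125 in non-restored libraries. The log2 fold change was 0.48 (SE 0.107, edgeR adjusted p = 0.0185). The call was lost without restored replicate 6 (0.0532), against either arm of the non-restored group alone (0.0713 for vehicle, 0.133 for tamoxifen) and without the 3 libraries high in macrophage markers (0.106), with log2 fold changes of 0.44 to 0.49. It was also lost when the effective transcript lengths entered the fit. The *KT* libraries had 89.0, 140, 144 and 85.9 CPM (replicates 1 to 4), so that the first and last lay within the non-restored range. The log2 fold change of non-restored against *KT* was -0.38 (SE 0.129, edgeR adjusted p = 0.0831). The opposite-strand gene *Mrnip*, which overlaps the end of *Sqstm1*, reached at most 5.02 CPM.

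*Fnip1* encodes a partner of folliculin and a substrate of AMPK (chromosome 11, 54438199 to 54518235). The restored libraries had 150, 137, 155, 107, 100.2, 130 and 135 CPM. The non-restored ones ran from 82.1 through 89.9 to 118 CPM, so that 2 of the 7 restored libraries lay within their range. The log2 fold change was 0.44 (SE 0.106, edgeR adjusted p = 0.0299). The call was lost when restored replicate 1, 2, 3, 6 or 7 was left out (0.0575 to 0.0798), against either arm of the non-restored group alone (0.0848 and 0.192) and without the 3 libraries high in macrophage markers (0.207, log2 fold change 0.38). It was also lost when the effective transcript lengths entered the fit.

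**Figure D2:**
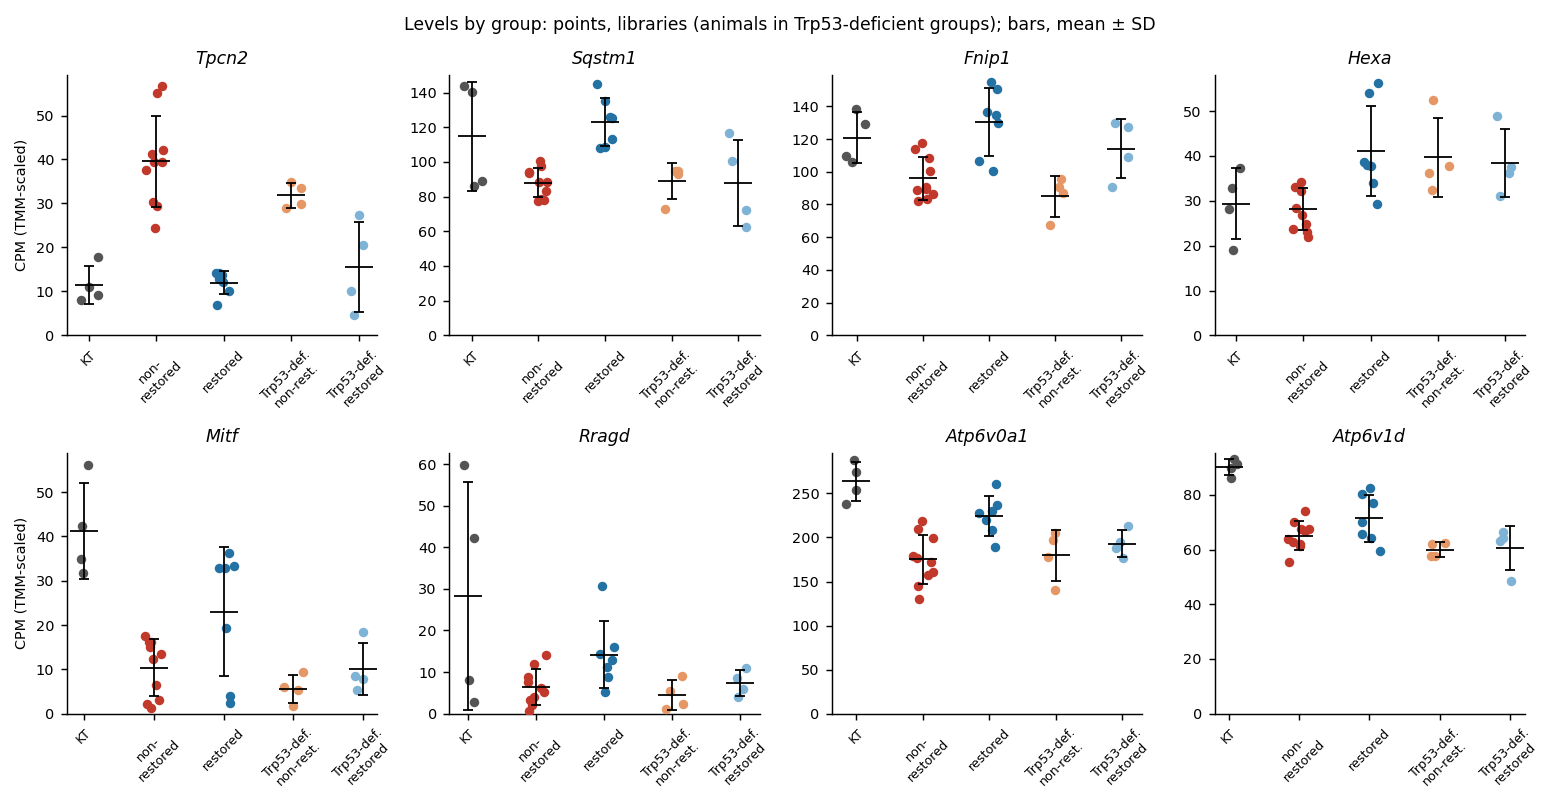
CPM (linear axes from 0) of 8 members in the 5 groups, with 1 point per library (per animal in the *Trp53*-deficient groups) and the mean ± SD as bars. *Tpcn2* in restored tumors, at 7.00 to 14.2 CPM, lies below every non-restored library and overlaps the *KT* points, and the *Mitf* points of the restored group fall into a low pair and 5 higher ones.

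Non-restored tumors were compared with *KT* tumors, from which they differ in the trap and also in treatment and, for 6 libraries, in FLPo-ERT2. The study also started *KT* tumors with a lower dose of lentiviral Cre, and the mix of sexes differed. Dose and sex differ in the same way between restored and *KT* tumors. *Tpcn2* was higher in the non-restored tumors, and *Mitf*, *Rragd* and the V-ATPase subunits *Atp6v0a1* and *Atp6v1d* were lower. These were 5 of the 45 members tested (11.1%), beside 741 of all 12636 genes (5.86%). The median log2 fold change was -0.12 over the members and 0.030 over all genes, and 26 of the members had values below 0. The groups did not overlap in CPM in 4 of the 45 members (*Tpcn2*, *Mitf*, *Atp6v0a1* and *Atp6v1d*), as in 3.88% of all genes. Markers of cell types moved in the same comparison, with 0 called. The median log2 fold change of the markers tested was 2.30 for endothelium (4 of 4 above 0), 1.64 for fibroblasts (4 of 4) and 1.19 for macrophages (8 of 9). It was 0.54 for tumor epithelium (5 of 6), -0.49 for alveolar type II cells (1 of 6) and -1.13 for airway cells (1 marker tested). The part of these markers in the members' values was not tested.

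The 4 *KT* libraries had 10.95, 9.13, 8.14 and 17.8 CPM of *Tpcn2*, all below the lowest non-restored library (24.5 CPM). The log2 fold change of non-restored against *KT* was 1.77 (SE 0.257, edgeR adjusted p = 0.00023). Restored and *KT* libraries overlapped, with a log2 fold change between them of 0.043 (SE 0.259, edgeR adjusted p = 0.976). *Tpcn2* was thus high in the tumors with trapped *Lkb1* and low in both groups in which *Lkb1* was expressed.

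*Mitf*, the TFEB-family factor best known from pigment cells, had 34.9, 42.3, 56.1 and 31.7 CPM in *KT* and 1.195 to 17.6 CPM in non-restored libraries, with a median of 12.95. Its log2 fold change was -1.99 (SE 0.589) with an edgeR adjusted p of 0.04997. That p lies at the threshold, and the call was lost in 21 of 24 alternatives (up to 0.225), each with a log2 fold change below 0. The restored group held 5 libraries at 19.3 to 36.2 CPM and 2 at 3.94 and 2.48 CPM (replicates 4 and 5). The same 2 libraries had the lowest sums of the 6 alveolar type II markers in their group (33760 and 40620 CPM, against 66590 to 87220 in the other 5), and the part of that in the *Mitf* values was not tested.

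*Rragd*, a Rag GTPase that is itself a target of the TFEB family, had 2.74, 59.8, 42.3 and 8.16 CPM in *KT*, which is a wide spread, and 0.699 to 14.2 CPM in non-restored libraries. The log2 fold change was -2.13 (SE 0.599, edgeR adjusted p = 0.0375), but the *KT* values overlapped those of the non-restored group. The call was lost in 14 of 24 alternatives (up to 0.211), among them those without *KT* replicate 2 (0.186, log2 fold change -1.51) or *KT* replicate 3 (0.15), which hold its 2 highest values, and with either control arm alone.

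*Atp6v0a1*, the a1 subunit of the membrane sector of the proton pump, had 238 to 288 CPM in *KT* and 131 to 219 CPM in non-restored libraries, without overlap (log2 fold change -0.59, SE 0.119, edgeR adjusted p = 0.00407). In TPM, which allows for transcript length, its *KT* (117 to 209) and non-restored values (69.7 to 171) overlapped. *Atp6v1d*, a subunit of its rotor, had 89.7, 91.3, 93.1 and 86.4 CPM in *KT* and 55.4 to 74.2 CPM in non-restored libraries, again without overlap (log2 fold change -0.47, SE 0.097, edgeR adjusted p = 0.00509). In TPM the values of *Atp6v1d* overlapped too, at 84.3 to 96.3 in *KT* and 61.5 to 92.6 in non-restored libraries. Restored tumors had 189 to 260 CPM of *Atp6v0a1* and 59.6 to 82.6 CPM of *Atp6v1d*. Each call was lost in 2 of 24 alternatives. Both were lost among female libraries alone (edgeR adjusted p = 0.147 and 0.0836), where *KT* has 2 libraries. That of *Atp6v1d* was also lost with the tamoxifen arm of the non-restored group alone (0.0542). That of *Atp6v0a1* was also lost when the effective transcript lengths entered the fit.

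**Figure D3:**
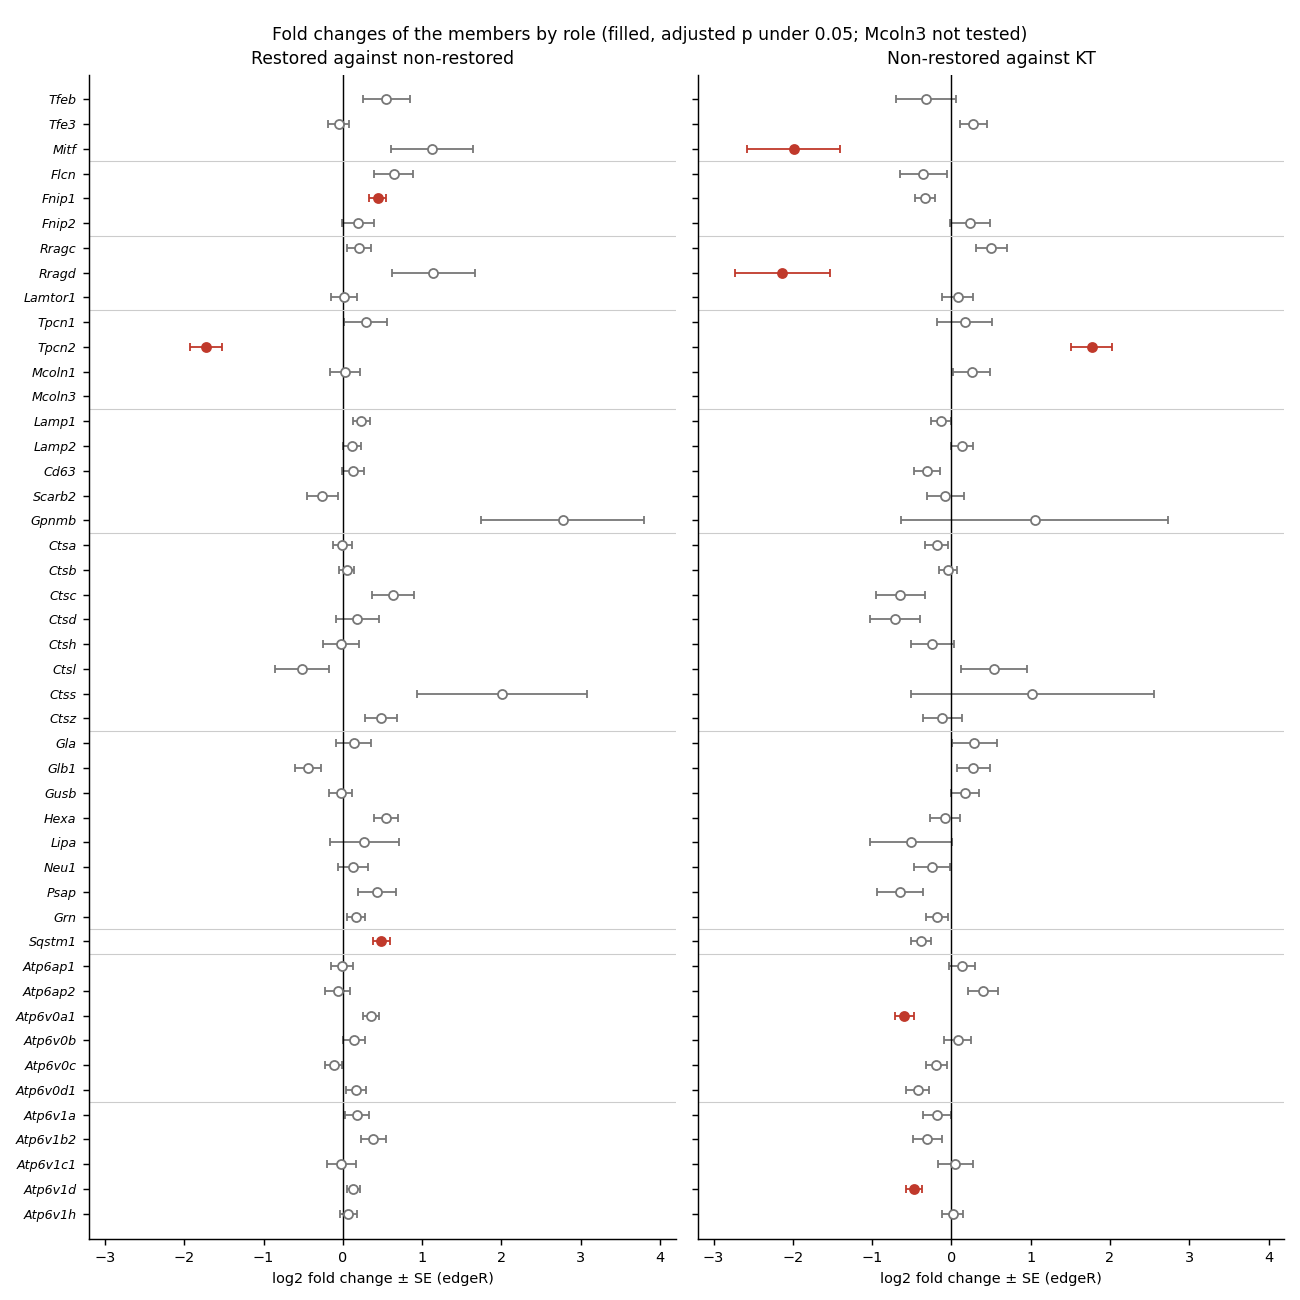
log2 fold change ± SE of each member tested, grouped by role, for restored against non-restored (left) and non-restored against *KT* (right), with filled points at an adjusted p under 0.05. *Tpcn2* stands apart at -1.73 on the left and 1.77 on the right, the V-ATPase subunits lie between -0.12 and 0.38 on the left, and the wide bars belong to *Gpnmb*, *Ctss*, *Mitf* and *Rragd*.

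Against *KT*, 0 of 45 members were called in restored tumors by edgeR, beside 0.459% of all genes. At an unadjusted p under 0.05 there were 5 members, beside 1333 of all 12636 genes. DESeq2 called 0 members, with 6 at that level beside 1373 of all genes. *Rragc*, another Rag GTPase gene beside *Rragd*, had 28.8 to 43.7 CPM in *KT* and 45.7 to 98.2 CPM in restored tumors (log2 fold change 0.71, SE 0.205, edgeR adjusted p = 0.149). *Atp6v1d* had a log2 fold change of -0.34 (SE 0.104, edgeR adjusted p = 0.18). These were the 2 members whose *KT* and restored libraries did not overlap in CPM, against 2.75% of all genes.

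The remaining regulators did not pass the test on restoration. *Tfeb* was near the limit of detection, with 3.06 to 7.00 CPM in restored and 1.16 to 5.91 CPM in non-restored libraries (log2 fold change 0.55, SE 0.298, edgeR adjusted p = 0.403). *Tfe3* had 28.3 to 45.6 and 30.2 to 50.4 CPM in the same groups, with a log2 fold change of -0.054 (SE 0.136). *Mitf* and *Rragd* had larger values, 1.12 (SE 0.518) and 1.14 (SE 0.526), at an edgeR adjusted p of 0.306 each. *Flcn*, the folliculin gene, had 26.9 to 69.3 CPM in restored and 12.1 to 43.8 CPM in non-restored tumors (0.64, SE 0.242, edgeR adjusted p = 0.199), and *Fnip2* had a log2 fold change of 0.19 (SE 0.201). *Lamtor1*, the Ragulator subunit that anchors the complex in the membrane, had 0.016 (SE 0.16). Of the channels beside *Tpcn2*, the related 2-pore channel *Tpcn1* had 0.29 (SE 0.27) and the calcium channel *Mcoln1* had 0.025 (SE 0.186).

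Most lysosomal membrane proteins and cathepsins were abundant, *Gpnmb* and *Ctss* being the lowest of them. By edgeR 0 of these 13 members were called in any comparison, where at most 5.86% of all genes were. For restoration 4 had an unadjusted p under 0.05, beside 1913 of all 12636 genes. *Lamp1* had 738 to 1191 CPM in restored and 734 to 1000 CPM in non-restored libraries (log2 fold change 0.23, SE 0.108, edgeR adjusted p = 0.312). *Cd63* had 0.13 (SE 0.138), and *Scarb2*, the receptor that delivers glucocerebrosidase, -0.26 (SE 0.195). *Ctsh* was flat, with means of 1569 CPM ± 345 (SD, n = 7) and 1594 ± 537 (n = 10) and a log2 fold change of -0.022 (SE 0.227). The lowest *Ctsh* value, 416 CPM in non-restored replicate 8, came from the library with the lowest sum of alveolar type II markers (4622 CPM, against 24320 to 55430 in the rest of that group). *Ctsc*, which activates serine proteases, had 1798, 1930, 1782, 1005, 1100, 1834 and 1842 CPM in restored libraries and 254 to 1590 CPM, with a median of 1169, in non-restored ones. Its log2 fold change was 0.64 (SE 0.267, edgeR adjusted p = 0.254). The 2 lower restored libraries, replicates 4 and 5, were those low in *Mitf* and in alveolar type II markers, and non-restored replicate 8 was again the lowest of its group. All 6 alveolar type II markers had log2 fold changes above 0 with restoration (median 0.38) and 0 of them were called. Their part in the *Ctsc* values was not tested.

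*Gpnmb* and *Ctss*, a membrane glycoprotein and a cathepsin of phagocytes, had the largest log2 fold changes of all members with restoration, 2.77 (SE 1.03, edgeR adjusted p = 0.192) and 2.01 (SE 1.07, edgeR adjusted p = 0.396). Both followed the summed macrophage markers. *Ctss* had 157, 63.5 and 60.0 CPM in restored replicates 1 and 6 and non-restored replicate 2, and 0 to 9.19 CPM in the other libraries of these 2 groups. *Gpnmb* had 78.4, 18.3 and 10.97 CPM in the same 3 libraries and at most 4.63 CPM in the rest of both groups. Without the 3 libraries the log2 fold change of *Ctss* was 0.29 (SE 0.852), and *Gpnmb* no longer passed the filter on low counts. *Mcoln3*, the third mucolipin, had 28, 10 and 5 counts in these libraries and 0 to 3 counts in every other unit. Of the defining macrophage markers, *Adgre1*, which encodes F4/80, had 16.7, 5.09 and 5.16 CPM in them and at most 1.81 CPM elsewhere. *Chil3* had 936, 385 and 194 CPM in them, beside marker sums of 1542, 694 and 471 CPM, and at most 133 CPM elsewhere. Not every marker set these libraries apart. *Csf1r* had 5.99 CPM in restored replicate 6 but 7.22 CPM in non-restored replicate 10. *Cd68* was lower in non-restored replicate 2 than in restored replicate 4 (21.4 CPM). The part of macrophages in the *Gpnmb*, *Ctss* and *Mcoln3* values was otherwise not tested.

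**Figure D4:**
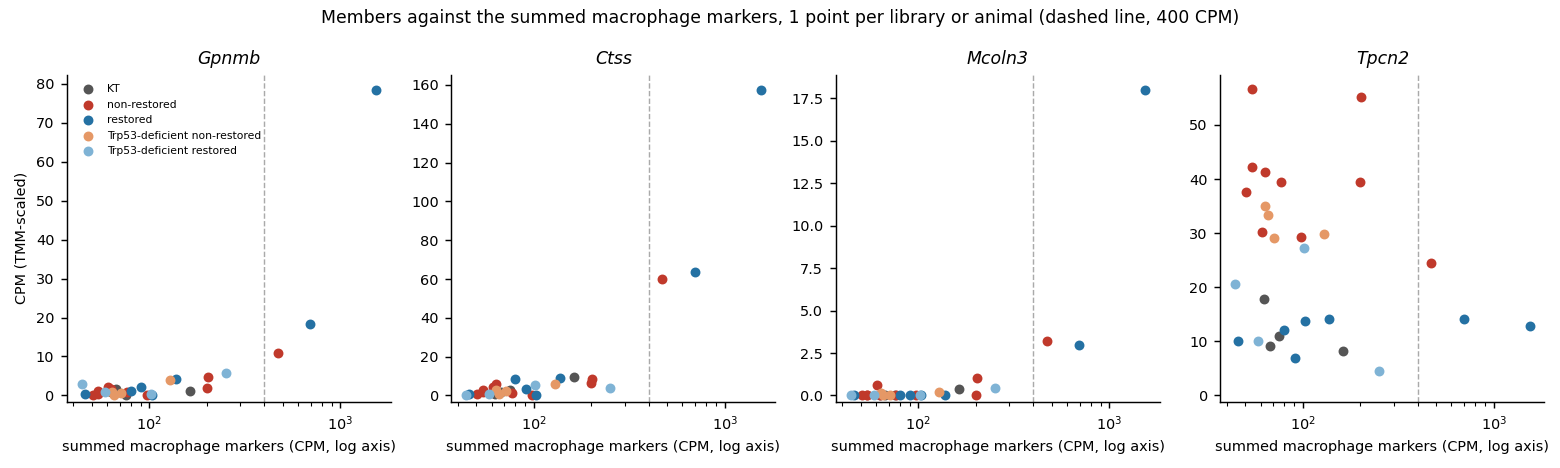
CPM of *Gpnmb*, *Ctss*, *Mcoln3* and *Tpcn2* against the summed CPM of 10 macrophage markers (log axis), with 1 point per library or per *Trp53*-deficient animal and a dashed line at 400 CPM. *Gpnmb*, *Ctss* and *Mcoln3* are high in the 3 libraries right of the line, whereas *Tpcn2* is low in the 2 restored ones of these (12.9 and 14.1 CPM) as in the other restored libraries.

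None of the 8 glycosidases, lipases and saposin-related members were called for restoration by edgeR, beside 1.87% of all genes. At an unadjusted p under 0.05 there were 2 of them, beside 1913 of all 12636 genes. *Hexa*, a subunit of the hexosaminidase that breaks down GM2 ganglioside, came closest. Restored libraries had 54.0, 56.3, 34.1, 29.3, 37.9, 37.7 and 38.7 CPM and non-restored ones 22.0 to 34.2 CPM, so that 2 restored libraries lay within that range. The log2 fold change was 0.54 (SE 0.151, edgeR adjusted p = 0.0666), and DESeq2 gave an adjusted p of 0.0271. *Glb1*, the beta-galactosidase used as a mark of senescent cells, went the other way, with 11.9 to 22.6 CPM in restored and 13.6 to 31.1 CPM in non-restored tumors (-0.44, SE 0.164, edgeR adjusted p = 0.191). *Grn*, the progranulin gene, had 0.16 (SE 0.114). *Lipa*, the acid lipase, varied within the non-restored group from 26.4 to 254 CPM (0.27, SE 0.437). Its log2 fold change was 4.93e-05 (SE 0.48) without the 3 libraries high in macrophage markers, 0.94 against the tamoxifen arm alone and -0.053 against the vehicle arm alone.

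The proton pump showed little movement as a whole. Of the 11 V-ATPase members, 0 were called for restoration by edgeR, beside 1.87% of all genes, and the median log2 fold change was 0.13. At an unadjusted p under 0.05 there were 2 of them, beside 1913 of all 12636 genes. *Atp6v0a1* had 189 to 260 CPM in restored and 131 to 219 CPM in non-restored libraries (0.36, SE 0.101, edgeR adjusted p = 0.069), and DESeq2 gave an adjusted p of 0.0225. *Atp6v1b2*, a catalytic-sector subunit, had 0.38 (SE 0.156, edgeR adjusted p = 0.233). *Atp6v1a*, the catalytic subunit, had 0.18 (SE 0.15), *Atp6v0c*, the proteolipid ring, -0.12 (SE 0.107), and *Atp6v0d1* 0.17 (SE 0.122). In non-restored tumors against *KT*, 2 of the 11 were called, both lower, at a median of -0.18 (5.86% of all genes were called there). The 15 members not described singly by level were *Lamp2*, *Ctsa*, *Ctsb*, *Ctsd*, *Ctsl*, *Ctsz*, *Gla*, *Gusb*, *Neu1*, *Psap*, *Atp6ap1*, *Atp6ap2*, *Atp6v0b*, *Atp6v1c1* and *Atp6v1h*. With restoration their log2 fold changes ran from -0.51 (*Ctsl*) to 0.48 (*Ctsz*), and none was called in any comparison by edgeR. Without the 3 libraries high in macrophage markers the value of *Ctsz* was 0.10 (SE 0.182).

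The 13 members with CACGTG in the promoter windows had a median log2 fold change of 0.14 with restoration, from -0.51 to 0.44, and 1 of them (*Fnip1*) was called. The 26 tested members with a matched promoter but without the core had a median of 0.23, from -1.73 to 2.77, and 2 were called. For non-restored against *KT* the medians were 0.077 and -0.19, with 0 and 5 members called. All genes were called at 1.87% and 5.86% in these comparisons, and the difference between members with and without the core was not tested.

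In *Trp53*-deficient tumors 0 of the 43 members tested were called on restoration by edgeR, and neither was any of all 12518 genes (0%), of which 748 had an unadjusted p under 0.05. At that level there were 3 members (*Fnip1*, *Ctsc* and *Gla*), and DESeq2 called 0 members with 4 at that level. *Tpcn2* had 29.0, 34.9, 29.9 and 33.4 CPM in the 4 non-restored animals and 20.5, 27.3, 4.52 and 10.0 CPM in the 4 restored ones. All 4 restored values lay below the non-restored ones, which held for 1 of the 43 members and for 3.61% of all genes in either direction. The log2 fold change was -0.97 (SE 0.438, unadjusted p = 0.0525, edgeR adjusted p = 0.803). *Fnip1* had 86.7, 90.6, 67.2 and 95.7 CPM in the non-restored animals and 129, 127, 90.9 and 109 CPM in the restored ones, a log2 fold change of 0.46 (SE 0.17, edgeR adjusted p = 0.803). *Sqstm1* had 73.1 to 94.9 and 62.5 to 116 CPM, a log2 fold change of 0.015 (SE 0.209).

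The difference between the 2 backgrounds was tested as an interaction in 25 units, and 0 of 45 members were called by edgeR (0% of 13705 genes, with 424 at an unadjusted p under 0.05) or by DESeq2, with 2 at an unadjusted p under 0.05 in each. These were *Sqstm1*, with a *Trp53*-deficient minus wild-type difference in log2 fold change of -0.50 (SE 0.187, unadjusted p = 0.0124), and *Hexa* with -0.60 (SE 0.249, unadjusted p = 0.0243), both at an edgeR adjusted p of 1.00. For *Tpcn2* the difference was 0.72 (SE 0.415, unadjusted p = 0.0957). The 2 restoration comparisons share no samples, and 30 of the 43 members tested in both had the same sign (69.8%), against 65.9% of all 12026 genes tested in both.

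**Figure D5:**
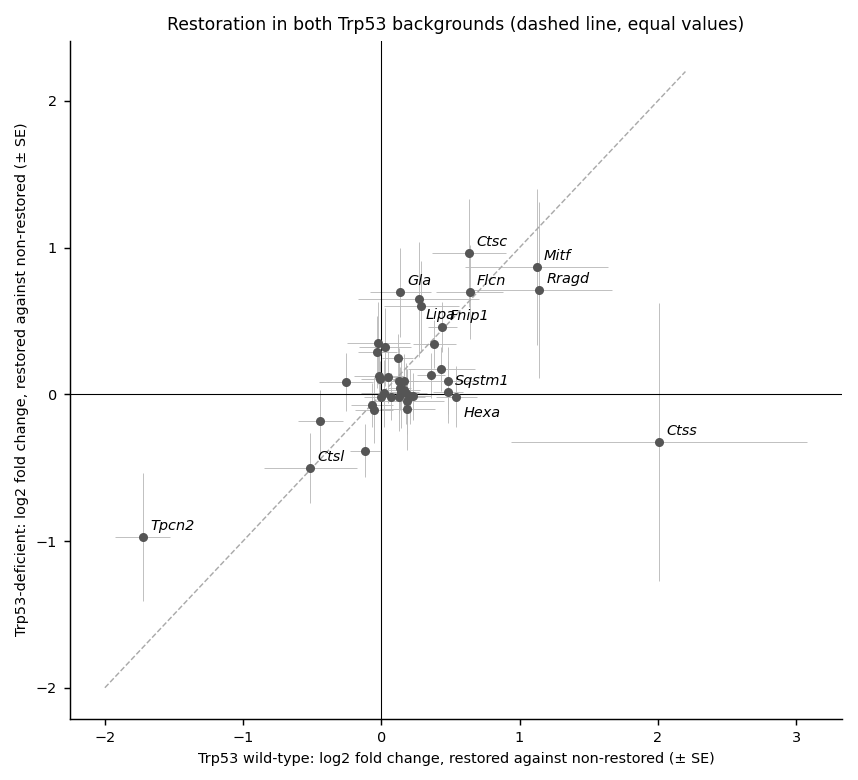
log2 fold change of restored against non-restored tumors in the *Trp53* wild-type (x axis) and *Trp53*-deficient (y axis) background for the 43 members tested in both, with SE bars and a dashed line of equal values. *Tpcn2* lies lowest in both (-1.73 and -0.97), *Fnip1*, *Flcn*, *Mitf* and *Ctsc* are above 0 in both, and *Sqstm1* and *Hexa* are near 0 on the y axis.

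Restored tumors were compared with a group that pools 2 control arms, and the tamoxifen arm (without FLPo-ERT2) was therefore set against the vehicle arm (with it) within the non-restored group. By edgeR 0 of 45 members were called (0.00791% of all genes), with 3 at an unadjusted p under 0.05 beside 582 of all 12636 genes. DESeq2 called 0 members, with 2 at that level beside 622 of all genes. *Tpcn2* had 35.2 CPM ± 14.6 (SD, n = 4) in the tamoxifen arm and 42.5 ± 6.36 (n = 6) in the vehicle arm, a log2 fold change of -0.27 (SE 0.24, edgeR adjusted p = 1.00). *Sqstm1* had 88.5 ± 8.99 and 87.8 ± 8.88 CPM and *Fnip1* 98.1 ± 15.5 and 94.8 ± 12.7 CPM in the same arms.

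Of 95 further genes of the lysosome, its sorting, mTORC1 and autophagy, 89 were tested in the *Trp53* wild-type tumors. With restoration 0 of them were called by edgeR, beside 1.87% of all genes, and the median log2 fold change was 0.024. At an unadjusted p under 0.05 there were 16 of them, beside 1913 of all 12636 genes. In non-restored tumors against *KT*, 3 of 89 were called (3.37%), a smaller share than the 5.86% of all genes. *Gm2a*, the activator protein with which hexosaminidase degrades GM2, fell from 50.03 CPM ± 10.95 (SD, n = 4) to 23.4 ± 6.14 (n = 10; log2 fold change -1.11, SE 0.193, edgeR adjusted p = 0.00133). *Arsb*, the arylsulfatase of dermatan sulfate, fell from 43.6 ± 10.7 to 23.7 ± 6.79 CPM (-0.88, SE 0.236, edgeR adjusted p = 0.0293). *Atp6v0a2*, another form of the V-ATPase a subunit, rose from 40.6 ± 8.88 to 56.4 ± 6.19 CPM (0.47, SE 0.136, edgeR adjusted p = 0.0411) while *Atp6v0a1* fell. Restored tumors had 30.5 ± 4.93 CPM of *Gm2a*, 26.1 ± 8.33 of *Arsb* and 46.6 ± 6.17 of *Atp6v0a2* (n = 7). None of this list were called in restored against *KT* tumors, in *Trp53*-deficient tumors, in the interaction or between arms by edgeR, with 12, 3, 1 and 4 genes at an unadjusted p under 0.05. Of all genes tested, 1333, 748, 424 and 582 stood at that level in the same order.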

How the data were processed

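Neoplastic cells sorted from lung tumors gave 32 bulk RNA-seq libraries. An allele that all groups share is not reported here. The authors aligned paired-end reads to mm10 with STAR 2.6.1d and estimated abundances with RSEM 1.2.30. The deposited expected counts are RSEM estimates of read pairs per gene, not normalized, and RSEM can divide a read between overlapping or similar genes (15.0% of the members' values were not whole). The deposited TPM values were scaled by the authors for effective length and library size. The deposited effective lengths entered one alternative. The 5 tables of the whole series were not used here; those of comparisons hold the authors' fold changes and p-values. No columns of per-library values were left unmapped. The kit depletes ribosomal RNA, and whether counting used strand is not given in the sources used here.

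Expected counts were rounded, filtered with filterByExpr and TMM-scaled. Each comparison was a robust quasi-likelihood F test in edgeR 4.0.16 (limma 3.58.1, R 4.3.3). P-values were adjusted after Benjamini-Hochberg over all genes tested and called under 0.05. One fit held the 21 libraries with intact *Trp53* in 3 groups, another the *Trp53*-deficient units, another the interaction in 25 units, and the last the arms, as 4 groups with restored and *KT*. CPM are counts relative to the TMM-scaled total. Non-overlap was judged on CPM. The fit was checked on simulated counts. The titles give each library with intact *Trp53* its own animal code, although the study describes fewer mice than non-restored and restored libraries. Each library was used as a unit, and p-values measure the spread between libraries. *Trp53*-deficient libraries were summed where their titles name the same animal. Intervals from counts cover counting error only. Alternatives tried included DESeq2 1.42.0, median-of-ratios scaling in edgeR, no filter, sex as a covariate, female libraries, effective-length offsets, single control arms, a replicate block, libraries of an animal kept apart, each replicate left out and, added after the data were seen, leaving out the 3 libraries over 400 CPM of macrophage markers.

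The members and lists were chosen with earlier results of these data known. The genes described singly were the regulators and channels, every member called, and in each other role the 2 members of highest mean TPM and the 2 of largest absolute log2 fold change with restoration, and of the 95 further genes those called. Members named for a promoter core, and the range ends of the remaining 15, fall outside this rule. Coordinates are GENCODE M21 (GRCm38, the same build as mm10) and RefSeq promoters GRCm38.p6. Another gene is annotated over 25 of the 46 members, a protein-coding one over 15. Python 3.11.15 with pandas 2.3.3, numpy 2.4.6 and matplotlib 3.10.9 was used for the rest.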

Additional observations from a re-analysis of the deposited data

Results flagged for a closer look

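In 16 of 155 groups of 4 to 10 units, a single unit of a described member stood far from the rest (Dixon's test, 95% level). Chance gives about 1 in 20 only for normally spread values, which members at a few counts, such as *Mcoln3*, do not have. The 16 groups can therefore not be set against that rate. *Ctss* stood out at 157 CPM in restored replicate 1 (group median 8.31) and at 60.0 CPM in non-restored replicate 2 (3.68). *Gpnmb* stood out at 78.4 CPM and 10.97 CPM in the same 2 libraries (2.26 and 1.37). *Mcoln3* did so at 17.99 CPM and 3.23 CPM in them (medians of 0), and single counts set it apart at 0.407 CPM in *KT* replicate 3 and 0.452 CPM in *Trp53*-deficient restored animal 3. *Grn* was highest in restored replicate 1, at 116 CPM (84.2). These 2 libraries were also high in macrophage markers.

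*Rragc* was set apart at 98.2 CPM in restored replicate 5 (56.6) and *Rragd* at 30.6 CPM in restored replicate 2 (12.9). *Lamtor1* was low in *Trp53*-deficient non-restored animal 4 (14.2 CPM, 22.5) and in *Trp53*-deficient restored animal 1 (14.7 CPM, 22.2). *Sqstm1* was low in *Trp53*-deficient non-restored animal 3 (73.1 CPM, 94.0). *Ctsc* was low in *KT* replicate 1 (837 CPM, 1844), the *KT* library with the fewest alveolar type II markers (36990 CPM, against 65710 to 73810). *Lipa* was high in non-restored replicate 4 (254 CPM, 54.0).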

How the results depend on the processing

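The call of *Tpcn2* held in all 27 alternatives for restoration (log2 fold change -1.86 to -1.56) and all 24 for non-restored against *KT* (1.38 to 2.32). For restoration the number of members called, 3, became 5 with DESeq2 (adding *Hexa* and *Atp6v0a1*) and 1 with effective-length offsets, with the tamoxifen arm only, with the vehicle arm only and without the libraries high in macrophage markers, and it ran from 1 to 4 when single replicates were left out. *Sqstm1* also lost its call with sex as a covariate (edgeR adjusted p = 0.0505). For non-restored against *KT*, the 5 members became 2 with effective-length offsets or the tamoxifen arm only, 3 with female libraries only, no filter, the vehicle arm only or sex as a covariate, and 3 to 5 when single replicates were left out. The other 4 counts stayed at 0 under every alternative run. No log2 fold change of a called member changed sign, nor did the median over the members for either of these 2 comparisons.

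The replicate numbers were not taken to pair the libraries, since 6 of 15 same-numbered pairs had a correlation of their deviations over 0.1 (from -0.0547 to 0.501) and nothing in the labels links them. Of the 7 pairs of a restored and a non-restored library, all were above 0 and 5 over 0.1, while 0 of the 7 restored libraries correlated best with the non-restored library of its own number. With the number as a replicate block, 3 members were called for restoration and 3 for non-restored against *KT*, where the median over the members moved from -0.12 to -0.0066. The *KT* group, 4 libraries of at most 2649437 expected counts, limits that comparison, and low members such as *Tfeb*, at a few counts per library, could not be resolved.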

Other observations

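The levels of 2 members are given by *Trp53* background with no test, since the tumors also differed in age (16 to 19 against 24 to 27 weeks). *Ctsl*, a cathepsin named after its values were seen, had 529 CPM ± 134.5 (SD, n = 4) in *Trp53*-deficient non-restored and 366 ± 98.7 (n = 4) in *Trp53*-deficient restored animals, against 239 ± 179 (n = 10) in non-restored, 168 ± 32.8 (n = 7) in restored and 164 ± 24.4 (n = 4) in *KT* libraries, and the highest non-restored library (577 CPM) lay within the range of the *Trp53*-deficient non-restored animals (354 to 662 CPM). *Tfeb* had 1.19 ± 0.448 CPM and 1.82 ± 1.29 CPM in the *Trp53*-deficient groups, near the limit that a count of 0 allows, against 3.07 ± 1.39 CPM in non-restored and 4.41 ± 1.35 CPM in restored libraries.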
